A study of Mus musculus with 2 samples.

Results

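Monocyte-lineage cells made up 97 of the 10377 bone marrow cells sequenced, 61 in the library sorted for E-cadherin and cKIT and 36 in the library sorted for E-cadherin without cKIT. They were picked out by their own RNA. A cell was taken if it held at least 1000 UMIs (unique molecular identifiers, 1 per captured RNA molecule), at least 5 of them from Csf1r, F13a1, Ly86 and Ms4a6c together, with at least 2 of these 4 genes detected. Cells with many UMIs of other lineages were left out. The limits were 0.5% of the UMIs of a cell for Elane and Prtn3 together, 0.5% for Mcpt8, 0.3% for the MHC class II genes H2-Aa, H2-Ab1, H2-Eb1 and Cd74 together, 0.3% for Camp, Ngp and Ltf together, and fewer than 3 UMIs for each of Cd79a, Prg2 and C1qa. Levels of these genes in the members follow from that choice and are given as a description only.

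Bone marrow of FVB mice was stained for E-cadherin and cKIT, and cells with E-cadherin were divided by whether they carried cKIT. Each sort was sequenced as 1 library. The study gives the aim as finding how the cKIT+ cells relate to the cKIT- basophil and mast cell precursors. Both groups share the E-cadherin gate. The labels name no genotype, age or treatment. A figure legend of the study describes the donors of these cells as several VaviCre;mTmG mice, and its main text as wild-type mice. In VaviCre;mTmG mice the Vav promoter drives Cre in blood cells and a membrane reporter marks them. Cells of different mice cannot be told apart in the files. The cKIT+ library held 95477153 UMIs in 6632 cells and the cKIT- library 24033994 UMIs in 3745 cells.

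Monocytes are phagocytes that arise in the marrow from granulocyte-monocyte progenitors, leave it with the help of the chemokine receptor CCR2, and can become macrophages or dendritic cells in tissues. Their survival and growth depend on CSF1 and its receptor CSF1R, and their fate depends on transcription factors such as PU.1, IRF8 and KLF4. In mice, classical monocytes carry much Ly6C and CCR2, whereas nonclassical monocytes carry little Ly6C, more CX3CR1, and depend on NR4A1.

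The members were 0.949% of the 6425 cKIT+ cells with at least 1000 UMIs (61 cells, exact binomial 95% interval 0.727 to 1.22) and 0.976% of the 3688 such cKIT- cells (36 cells, 0.685 to 1.35). When the choice was made on cells drawn down to 2000 UMIs each, the shares were 0.563% (0.392 to 0.782) and 0.791% (0.527 to 1.14). All intervals here are for counting error only. Each sort was 1 library, so no difference has a replicate check, no test was made, and cells of a library are not replicates. A member held a median of 6713 UMIs in the cKIT+ library (1461 to 26163) and 7064.5 in the cKIT- library (2351 to 21808), against 13419 and 4476.5 in the other cells with at least 1000 UMIs. The members of the sorts were thus closer to each other in depth than the rest of the libraries were. Mitochondrial genes took a median of 3.11% and 4.31% of their UMIs. Of 10 barcodes that occur in both libraries, 1 was a member.

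Most cells that carried the 4 chosen genes and were left out failed on Elane and Prtn3 or on MHC class II. In the cKIT+ library 229 cells had enough UMIs of the 4 chosen genes, and 54 of them were left out by Elane and Prtn3 alone, 47 by MHC class II alone, 10 by Mcpt8 alone and 8 by C1qa alone. In the cKIT- library 69 cells had enough, and 18 were left out by MHC class II alone. Just inside the limit, 3 cKIT+ members held 5 UMIs of the chosen genes, and just outside it 5 cKIT+ cells held 3 and none held 4. Within 0.1 percentage points of the MHC class II limit, 2 cKIT+ and 3 cKIT- members lay below it and 1 cKIT- cell above it. The 47 cKIT+ cells left out by MHC class II alone had 4091 CPM of Lyz2 and 7.37 CPM of Fn1, and the 18 cKIT- ones had 20395 CPM of Lyz2 and 1681 CPM of Fn1. CPM is the level of a gene in the summed UMIs of a group of cells, on the scale on which 10000 CPM is 1% of those UMIs.

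The name of these cells was checked on Ccr2, a monocyte marker that the choice did not use. Ccr2 (chromosome 9, 124101950 to 124113557, GRCm38) had 662 CPM in the cKIT+ members and 982 CPM in the cKIT- members, with a UMI in 51 of 61 and 35 of 36 cells. Elsewhere in the cKIT+ library it had 11.8 CPM in 551 cells high in Elane, 3.53 CPM in 419 neutrophil-lineage cells and 1.90 CPM in 3149 basophils, and in 2236 cKIT- basophils it had 0.684 CPM. In 112 cKIT+ macrophages, cells with at least 3 C1qa UMIs, it had 32.4 CPM. It was as high in the cells left out by MHC class II alone, 973 CPM in the 47 cKIT+ and 2143 CPM in the 18 cKIT- ones, so Ccr2 does not set the members apart from these. The name was kept for the group as a whole. It does not describe every member equally well, and 9 cKIT+ members and 1 cKIT- member had at most 3 UMIs of Lyz2, and of 5 cKIT+ members with at least 3 UMIs of Maf only 2 had a Ccr2 UMI. Those cells are described further on.

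**Figure D1:**
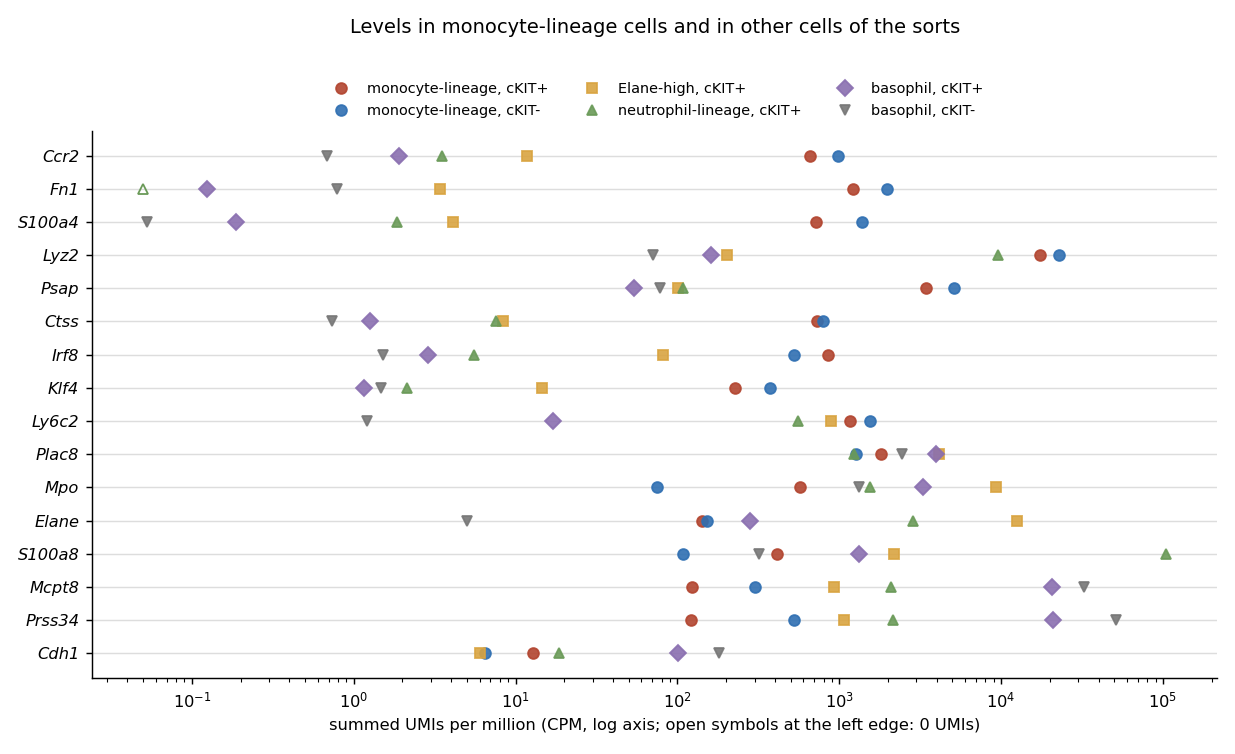
Summed level of 16 genes in monocyte-lineage cells (circles) and in 3 other classes of the sorts, in CPM on a log axis. Ccr2, Fn1, S100a4 and Ctss lie above 600 CPM in the members of both sorts and below 13 CPM in every other class drawn, while Mpo, Elane, S100a8, Mcpt8 and Prss34 lie lower in the members than in the class they mark.

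Lyz2, which encodes the bacteria-degrading enzyme lysozyme (chromosome 10, 117277331 to 117282321), had 17480.1 CPM in the cKIT+ members and 22939 CPM in the cKIT- members. Over single cells, Lyz2 ranged from 0 to 517 UMIs per 10000 in the cKIT+ members (median 244) and from 0 to 587 in the cKIT- members (median 258), so that the sorts overlapped over nearly the whole range. Reads of Lyz2 and its copy Lyz1, and of Ly6c2 and Ly6c1, cannot be told apart with certainty. Ly6c2, the gene of the Ly6C antigen (chromosome 15, 75108158 to 75111970), had 1169 and 1552 CPM. Fn1, which encodes fibronectin (chromosome 1, 71585520 to 71653200), had 1225 CPM in the cKIT+ members and 1979.5 CPM in the cKIT- members, with a UMI in 43 of 61 and 35 of 36 cells. Ly6c2 was at 0 in 17 of the 61 cKIT+ and 3 of the 36 cKIT- members. S100a4, a calcium-binding protein of migrating cells (chromosome 3, 90603771 to 90606045), had 718 and 1386 CPM, with a UMI in 51 of 61 and 36 of 36 cells. Each of Fn1 and S100a4 was thus seen in almost every cKIT- member and was at 0 in some cKIT+ members.

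Receptors of growth factors and cytokines were measured at lower levels. Csf1r, used to choose the members, had 194 CPM in the cKIT+ and 307 CPM in the cKIT- members. Chains of other receptors, which the choice did not use, were at similar levels in both sorts. Ifngr1, a chain of the interferon gamma receptor, had 296 and 365 CPM. Il6ra, the receptor of interleukin 6, had 215 and 205 CPM. Csf2ra, the GM-CSF receptor alpha chain, had 128 and 150.0 CPM. The receptor of early progenitors Flt3 had 6 UMIs in each sort, 12.8 and 19.6 CPM. Of 14 chemoattractant receptors on the list only 4 reached 100 CPM in a sort, among them Ccr2 and Cx3cr1, the fractalkine receptor, which had 136 CPM in the cKIT+ and 97.8 CPM in the cKIT- members.

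Receptors for microbes and antibodies were led by their shared signalling adaptors. Tyrobp, which encodes the adaptor DAP12, had 3009 CPM in the cKIT+ and 3157 CPM in the cKIT- members, and Fcer1g, the common gamma chain of Fc receptors, had 1710.1 and 1872 CPM. Cd14, the coreceptor for lipopolysaccharide and a usual surface marker of human monocytes, had only 18 and 7 UMIs, 38.3 and 22.8 CPM. Fcgr1, the high-affinity IgG receptor, had 4 and 5 UMIs.

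Transcription factors of the lineage were present in both sorts. Irf8 (chromosome 8, 120736358 to 120756694) had 850 CPM in the cKIT+ members and 528 CPM in the cKIT- members. Klf4 had 226 and 372 CPM, Spi1, the gene of PU.1, 545 and 460 CPM, and Zeb2, a repressor expressed through the monocyte line, 645 and 704 CPM. Cebpb, which nonclassical monocytes need, had 475 and 698 CPM. Nr4a1 was low, with 14 and 7 UMIs, 29.8 and 22.8 CPM, and Ace and Treml4, markers of nonclassical monocytes, had at most 10 UMIs in a sort. Summed over cells, the members of both sorts therefore carried the genes of classical monocytes at much higher summed level (30452 and 41315.5 CPM over 21 genes) than those of nonclassical monocytes (1567 and 1360 CPM over 18 genes), a comparison of summed UMIs that is not corrected for gene length and in which Lyz2 alone gave 17480.1 and 22939 CPM. Single cells differed from these sums. The nonclassical list had a median of 14.4 UMIs per 10000 in the cKIT+ and 12.7 in the cKIT- members, but 5 cKIT+ members, singled out after their values were seen, had 54.9 to 109.7. These 5 had no UMI of Ly6c2, Fn1 or Maf, and Apoe at 54.9 to 173 UMIs per 10000.

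The lysosome list summed to 27538 CPM in the cKIT+ and 34960 CPM in the cKIT- members, with Lyz2 the most abundant. Psap, which encodes the precursor of lysosomal saposins, had 3427 and 5100.4 CPM, and Ctss, the gene of the protease cathepsin S, 728 and 796 CPM. Cybb, the catalytic subunit of the phagocyte NADPH oxidase, which makes superoxide, had 1041 and 1167 CPM, with a UMI in 53 of 61 and 36 of 36 cells. Complement and clotting genes were present too. C3, the central complement component, had 326 and 577 CPM, F10, clotting factor X, 130 and 157 CPM, and Cfp, properdin, 264 and 385 CPM.

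Both genes of the sort were low in the members. Kit (chromosome 5, 75574916 to 75656722) had 4 UMIs in 2 of the 61 cKIT+ members, 8.52 CPM, and 0 UMIs in the 36 cKIT- members, where 3 counts would be 9.78 CPM. Among other cKIT+ cells Kit had 37.4 CPM. Cdh1, which encodes E-cadherin (chromosome 8, 106603351 to 106670246), had 6 UMIs or 12.8 CPM (exact Poisson interval 4.69 to 27.8) in the cKIT+ members, all of them in 1 cell that also held basophil RNA, and 2 UMIs or 6.52 CPM (0.790 to 23.6) in 2 cKIT- members, 1 of which was the member with most basophil UMIs described further on. Basophils had 101.5 and 181 CPM of Cdh1. B-lineage cells, taken as a background because they are not known to carry it and could hold free RNA of basophils, had 7.63 and 19.2 CPM. These B-lineage cells also held more of the basophil gene Mcpt8 than the members did (1547 against 124 CPM, 2458 against 303 CPM). The choice limited Mcpt8 in the members and not in the B-lineage cells, so this difference follows in part from the choice. Whether the members had Cdh1 RNA of their own cannot be told at this depth. With each cell drawn down to 2000 UMIs, 1 of 59 cKIT+ members (1.69%, 0.0429 to 9.09) and 0 of 36 cKIT- members had a Cdh1 UMI, against 19.5% of cKIT+ and 33.1% of cKIT- basophils. Without drawing down, the shares were 1.64% and 5.56% of members and 73.0% and 74.0% of basophils. The median B-lineage cell held 3484 and 2742 UMIs, and 5.56% and 3.80% of these cells had a Cdh1 UMI.

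Members of the cKIT+ sort were compared with those of the cKIT- sort over 1865 genes with at least 100 CPM in 1 of them. In the cKIT+ members 43 genes (2.31% of those tested) were at least 2-fold higher and 39 (2.09%) at least 2-fold lower, and the median log2 ratio over all tested genes was -0.04. The exact binomial interval of the ratio lay wholly beyond 2-fold for 15 of the 43 and 4 of the 39. The largest ratios on the cKIT+ side were those of Ccnd2, Ccl4, Maf, S100a9, Mpo and Apoe, and those on the cKIT- side were those of Prss34, Milr1 and Chil3, which encodes a chitinase-like protein of monocytes and neutrophils.

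Mpo, which encodes the granule enzyme myeloperoxidase (chromosome 11, 87793581 to 87804413), had 571 CPM in the cKIT+ members and 75.01 CPM in the cKIT- members, and the ratio was 7.61 (interval 4.97 to 12.2). Its UMIs lay in 18 of 61 and 5 of 36 cells. Of the 268 cKIT+ UMIs, 242 came from the 9 members with at most 3 Lyz2 UMIs, and without these and the 1 such cKIT- member the ratio was 0.965. The higher Mpo of the cKIT+ sort thus lay among these 9 cells, unevenly, with 0 to 88 UMIs per cell and a UMI in 7 of them. With the study's own cell filter, which left out 2 cKIT- members, the ratio was 37.8. Elane, which was limited by the choice, had 143 and 153 CPM.

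Apoe, which encodes the lipid carrier apolipoprotein E (chromosome 7, 19696109 to 19699188), had 1589 CPM in the cKIT+ and 258 CPM in the cKIT- members, a ratio of 6.17 (4.89 to 7.88), with a UMI in 31 of 61 and 19 of 36 cells. Maf, a transcription factor of macrophages (chromosome 8, 115682942 to 115707794), had 67 UMIs in 7 cells against 2 UMIs in 2 cells, a ratio of 21.9 (5.82 to 184). Ccl4, a chemokine, had 50 UMIs against 0, at least 10.9-fold higher against 3 counts, but 43 of them came from 1 cell. Leaving out 5 cKIT+ members with at least 3 UMIs of Maf brought the ratio of Apoe to 3.15 and that of Maf to 0.706. The fall of Maf follows from the pick. Still included were the 5 cKIT+ members rich in the nonclassical list, with Apoe at 54.9 to 173 UMIs per 10000. The median over all cKIT+ members was 0.511. Within subcluster 0, described below, Apoe had 3 UMIs in the cKIT+ and 5 in the cKIT- cells (10.1 CPM, 2.09 to 29.6, and 30.2 CPM, 9.81 to 70.5), a ratio of 0.335 on overlapping intervals.

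Ccnd2, which encodes the G1 cyclin D2, had 54 UMIs in the cKIT+ and 0 in the cKIT- members, at least 11.8-fold higher against 3 counts. Of these 54, 53 lay in the 9 members with at most 3 Lyz2 UMIs, 26 of them in 1 cell. Fabp5, a fatty acid carrier, had 897 against 150.01 CPM (ratio 5.98, 4.40 to 8.29), but 225 of its 421 cKIT+ UMIs came from these 9 members (173 from 1 cell) and 122 from the 5 members with Maf, and the other 47 had 236 CPM. Hist1h1b, a linker histone made in S phase whose reads may be shared with other histone genes, had 677 and 134 CPM, a ratio of 5.07 (3.65 to 7.19), in 14 and 6 cells. Cd63, a granule membrane protein, had 155 and 29.4 CPM, but 32 of its 73 cKIT+ UMIs lay in the 9 members and 32 in the 5 with Maf, the other 47 had 28.7 CPM, and 8 of the 9 cKIT- UMIs lay in 1 cell. S100a9, a subunit of the neutrophil protein calprotectin, had 65 UMIs against 3, a ratio of 14.1 (4.63 to 70.4). S100a9 had 122909 CPM in cKIT+ neutrophil-lineage cells and 1549.6 CPM in cKIT+ but 470 CPM in cKIT- basophils, and the part of free RNA in its difference between the members was not tested.

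On the lower side, Chil3 (chromosome 3, 106147554 to 106167564) had 696 CPM in the cKIT+ and 2224 CPM in the cKIT- members, a ratio of 0.313 (0.274 to 0.358). It was at 0 in 33 of the 61 cKIT+ members and in 4 of the 36 cKIT- members, and its median was 0 and 12.4 UMIs per 10000. Chil3 was lower on the cKIT+ side in either subcluster of the members described below, with 307 against 1541 CPM in the first and 1362 against 3024 CPM in the second. S100a4 just missed the 2-fold limit at a ratio of 0.518 (0.447 to 0.599), with cell medians of 7.34 and 15.6 UMIs per 10000. Milr1, an inhibitory receptor of myeloid and mast cells, had 49.0 and 166 CPM. Prss34, a basophil protease, had 121 and 525 CPM, but 108 of its 161 cKIT- UMIs came from 1 cell, and without members with Prss34 at 0.5% or more of their UMIs the ratio was 0.665.

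**Figure D2:**
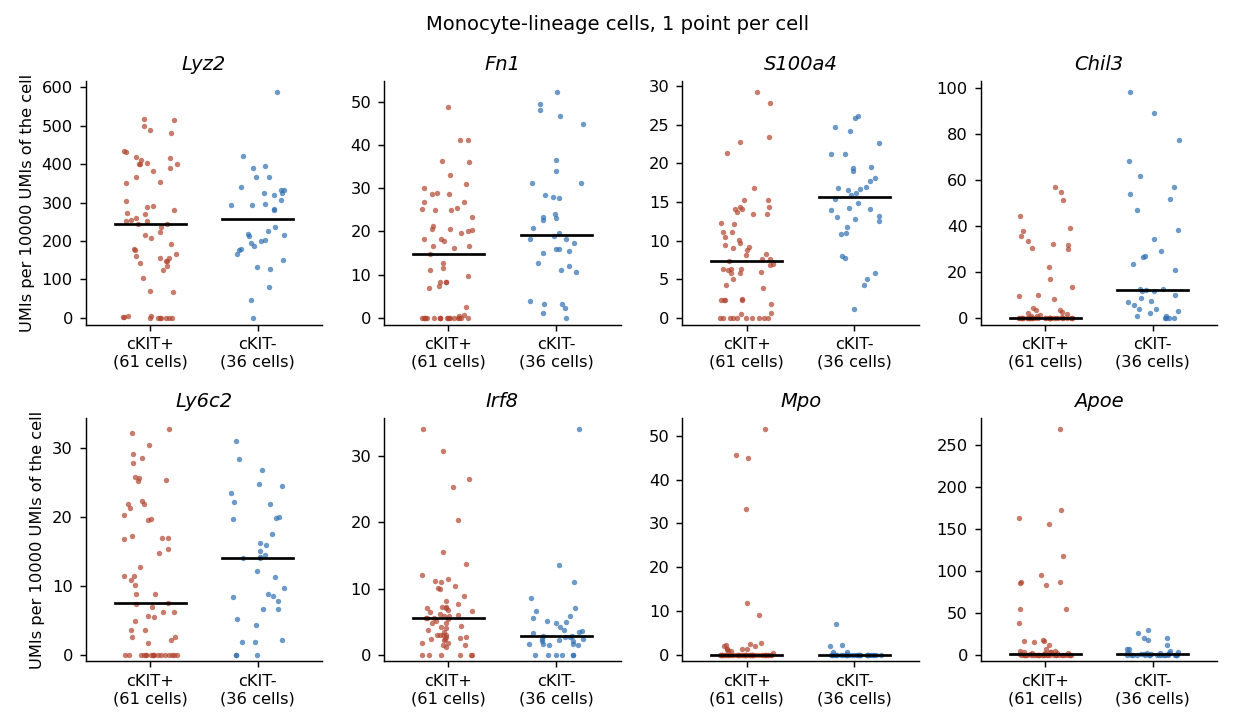
Level of 8 genes in each monocyte-lineage cell, in UMIs per 10000 UMIs of the cell, with 1 point per cell and a bar at the median, for 61 cKIT+ and 36 cKIT- cells of 1 library each. Lyz2 overlaps between the sorts, S100a4 and Chil3 sit higher in cKIT- cells (Chil3 at 0 in 33 of 61 cKIT+ cells), and high values of Mpo and Apoe come from a few cKIT+ cells.

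Across the fixed lists, few genes of the monocyte programme itself passed 2-fold between the sorts. Of 17 tested genes of classical monocytes 0 were higher and 1, Chil3, was lower in the cKIT+ members, with a median log2 ratio of -0.48. Among 14 transcription factors 1 was higher (Maf) and 0 lower. Of 12 receptors for microbes and antibodies 2 were lower, the scavenger receptor Msr1 (55.4 against 114 CPM) and the inhibitory receptor Pirb (111 against 225 CPM), and with TMM scaling neither passed 2-fold. None of 17 lysosome genes, 7 NADPH oxidase genes, 9 growth factor and cytokine receptors, 4 complement and clotting genes or 16 genes of actin and migration passed 2-fold in either direction. Higher in the cKIT+ members were 2 of 10 interferon response genes, 2 of 7 inflammatory mediators and 1 of 13 adhesion genes, and 0 of each were lower. Ccl4 was among these mediators, with 43 of its 50 UMIs in 1 cell. That cell also held 59 UMIs of Ccl3, another mediator on the list. The adhesion gene was Cd63, whose UMIs by cell are described above. Of 8 progenitor genes 2 were higher, Mpo and the early progenitor receptor Cd93 (117 against 55.4 CPM), with a median log2 ratio of 0.67. Of 12 genes of G2 and mitosis 4 were higher, Top2a (407 against 196 CPM), Cenpf (128 against 62.0), Cenpe (111 against 26.1) and Tpx2 (113 against 39.1), with a median log2 ratio of 0.58, whereas 0 of 10 genes of S phase passed 2-fold and their median was -0.23. These counts stand beside 2.31% higher and 2.09% lower over all tested genes. Of the UMIs of the G2 and mitosis list, the 9 cKIT+ members with at most 3 Lyz2 UMIs held 370, 289 of them in 1 cell. The 47 cKIT+ members with neither at most 3 Lyz2 UMIs nor at least 3 Maf UMIs held 1080.

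**Figure D3:**
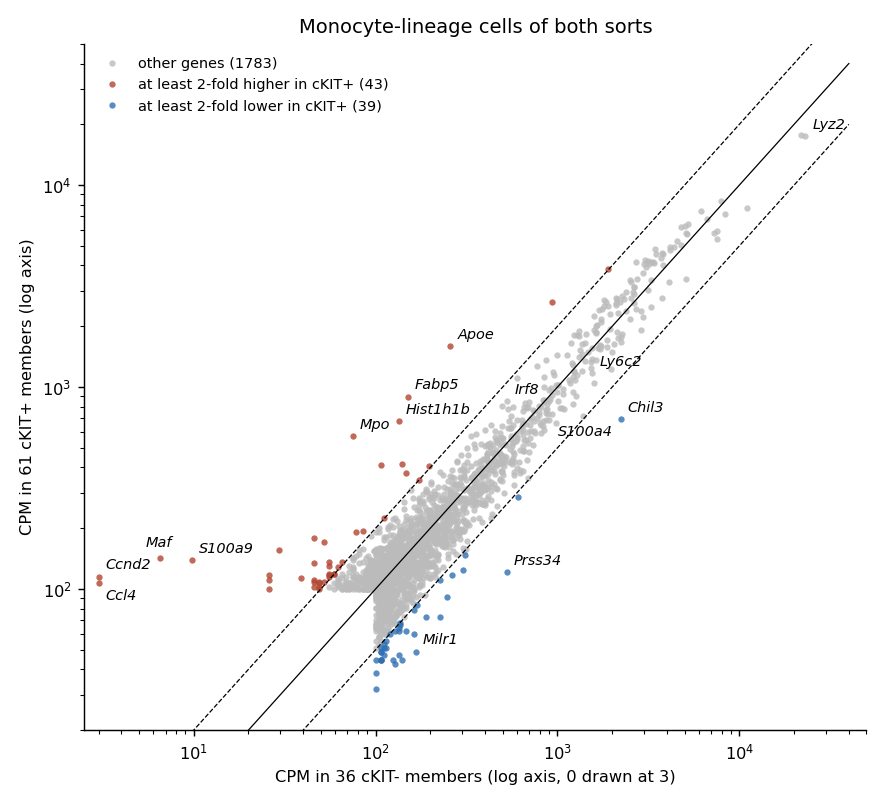
CPM of 1865 genes in the 61 cKIT+ members against the 36 cKIT- members, both on log axes, with the line of equal level (solid) and 2-fold either way (dashed). Most genes lie between the dashed lines, 43 lie above and 39 below them, and genes with 0 UMIs in the cKIT- members are drawn at 3 CPM.

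Markers of other cell types were counted in the members as whole lists. The macrophage list of 15 genes summed to 1849 CPM in the cKIT+ and 473 CPM in the cKIT- members, with Apoe the most abundant and C1qb, Cd5l and Cd163 at 0 in both. The list of late neutrophil genes summed to 2017 and 3232 CPM, led by Chil3, with Ly6g at 0 in both, and without Chil3 it was higher in the cKIT+ members (1320.4 against 1008 CPM). The basophil list of 10 genes summed to 383 and 982 CPM, led by Mcpt8 in the cKIT+ and Prss34 in the cKIT- members, and 8 and 9 of its genes had a UMI. In each sort 1 member held much of it, 64 of the cKIT+ and 195 of the cKIT- UMIs, and without that member the sums were 249.5 and 365 CPM. B-lineage cells, which should lack Mcpt8 and Prss34, had 1547 and 2416 CPM of them in the cKIT+ library. In the cKIT- library they had 2458 and 4468 CPM. The members had less (124 and 121 CPM, 303 and 525 CPM). For Mcpt8 this follows in part from the choice, which limited it in the members and not in the B-lineage cells. The eosinophil list summed to 215 and 346 CPM and was led by Ear1, whose reads may be shared with Ear2 and Ear6. The dendritic list summed to 464 and 473 CPM and was led by Cd74, which the choice limited, with Xcr1 and Ccr9 at 0. T and NK cell genes (57.5 and 9.78 CPM), erythroid genes (72.4 and 29.4 CPM) and mast cell genes (10.6 and 0 CPM) were near 0. The part of such RNA in the differences between the sorts was not tested.

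The members were set against 551 cKIT+ cells high in Elane and Prtn3, the granule proteases of granulocyte-monocyte progenitors. Of 1836 tested genes 380 (20.7%) were at least 2-fold higher and 153 (8.33%) at least 2-fold lower in the members, with a median log2 ratio of 0.03. With TMM scaling, which evens out the bulk of genes, the split was 280 higher and 271 lower. All of 7 tested primary granule genes were lower, Elane and Prtn3 by the choice, and their list summed to 1619 CPM in the members against 39137 CPM. Ctsg, the gene of cathepsin G, had 192 against 6174 CPM, and Ms4a3, a gene of committed granulocyte-monocyte progenitors, 46.9 against 2111 CPM. The progenitor factor Myb had 66.0 against 501 CPM, and the granulocyte factor Cebpe 17.0 against 307 CPM. On the higher side stood 14 of 17 tested genes of classical monocytes, 14 of 17 lysosome genes (12 of 16 with TMM scaling), 11 of 15 transcription factors (10 of 17) and 4 of 4 complement and clotting genes, F13a1 among them by the choice. Fn1 had 1225 against 3.41 CPM, S100a4 718 against 4.09 CPM, Irf8 850 against 81.5 CPM and Klf4 226 against 14.5 CPM. Plac8, by contrast, was lower in the members (1804 against 4135 CPM), and Ly6c2 did not pass 2-fold (1169 against 885 CPM).

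Genes of division did not separate these classes by summed level. Such sums weigh each cell by its UMIs. At equal depth, the share of cells with mitosis genes, given below, was lower in the cKIT+ members than in the Elane-high cells. Of 12 tested genes of G2 and mitosis 1 was at least 2-fold higher in the members, and 0 were with TMM scaling, and of 10 genes of S phase 1, Dut, was lower. The summed level of the G2 and mitosis list was 3097 CPM in the members and 2589 CPM in the Elane-high cells. That of the S phase list went the other way, with 1966 against 2455 CPM.

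Of 1733 genes tested against 419 neutrophil-lineage cells of the cKIT+ library, chosen by Camp, Ngp and Ltf, 483 (27.9%) were higher and 116 (6.69%) lower in the members. The median log2 ratio was 0.66, and with TMM scaling it was -0.18 and the split turned to 158 higher and 261 lower. Late neutrophil genes were lower for 14 of 15 tested, Camp, Ngp and Ltf by the choice of both classes, 2017 CPM summed in the members against 352687 CPM. S100a8 had 411 against 104832 CPM. Ly6g, a surface marker of neutrophils, had 0 UMIs in the members and was at least 54.6-fold lower against 3 counts. Fn1 and Vcan, which encodes the matrix proteoglycan versican, were at 0 UMIs in the neutrophil-lineage cells, and their levels in the members were at least 2659.6-fold and 259-fold higher against 3 counts. Lyz2 was shared, with 17480.1 against 9631 CPM. Genes of classical monocytes were higher for 11 of 18 and lower for 4, and with TMM scaling for 7 and 4 of 17. Of 7 NADPH oxidase genes 0 were higher and 2 lower. Lysosome genes were higher for 13 of 17, and for 11 of 16 with TMM scaling, such as Psap with 3427 against 109 CPM.

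Basophils, the main population of both sorts, gave the same contrast in 2 libraries. In the cKIT+ library 332 of 1857 tested genes (17.9%) were higher and 175 (9.42%) lower in the members than in 3149 basophils. In the cKIT- library 395 of 1995 (19.8%) were higher and 288 (14.4%) lower than in 2236 basophils. Among 1690 genes tested in both, 246 were higher in both, 137 were lower in both and 2 went opposite ways. With TMM scaling the splits were 248 and 267, and 283 and 416. Of 17 tested genes of classical monocytes 15 were higher in each library, with either scaling. Fn1 had 1225 against 0.124 CPM in the cKIT+ and 1979.5 against 0.790 CPM in the cKIT- library. S100a4 had 718 against 0.186 CPM, and 1386 against 0.0526 CPM, where the basophils held 1 UMI. Il6ra had 215 against 0.621 CPM and 205 against 0.105 CPM. Complement and clotting genes were higher for 4 of 4 in both, F13a1 by the choice, and C3 stood at 326 against 6.62 CPM and 577 against 2.47 CPM.

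Basophil genes were lower in the members for 8 of 8 and 9 of 9 tested, Mcpt8 by the choice, and summed to 383 against 47651 CPM and 982 against 92529 CPM. Growth factor receptors were divided, with 7 of 10 higher, Csf1r among them by the choice, and 3 lower in each library. The 3 lower ones were the same in both and belong to the receptors of IL-3, IL-5 and GM-CSF: Csf2rb (130 against 261 CPM in the cKIT+ library), Csf2rb2 (8.52 against 128 CPM) and Il3ra (46.9 against 164 CPM). Genes of G2 and mitosis differed with the library. Against cKIT+ basophils 0 of 15 passed 2-fold, and against cKIT- basophils 14 of 18 were lower in the members, such as Top2a with 196 against 456 CPM and Cenpf with 62.0 against 236 CPM. Mki67 did not differ by 2-fold there (290.2 against 282 CPM). The difference between these contrasts was not tested.

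Cells with RNA of mitosis genes were counted after each cell was drawn down to 2000 UMIs, which left out 2 cKIT+ members. The part of free RNA in these shares was not tested, and they are not counts of dividing cells. At least 2 UMIs of the 23 genes of G2 and mitosis were found in 19 of 59 cKIT+ members (32.2%, exact binomial interval 20.6 to 45.6) and 10 of 36 cKIT- members (27.8%, 14.2 to 45.2). Averaged over draws the shares were 36.5% and 27.6%, and without drawing down they were 44.3% and 38.9%. The intervals of the sorts overlapped almost wholly. Of the Elane-high cells 63.9% passed, of cKIT+ basophils 57.3% and of cKIT- basophils 45.4%. B-lineage cells gave 37.7% in the cKIT+ and 7.83% in the cKIT- library.

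Clustering the 97 members on 1000 variable genes, without the genes of the choice, gave 2 subclusters that each held cells of both sorts. Subcluster 0 had 37 cells, 25 of 61 cKIT+ members (41.0%, 28.6 to 54.3) and 12 of 36 cKIT- members (33.3%, 18.6 to 51.0), with a median of 11828 UMIs. Subcluster 1 had 60 cells with a median of 5073.5 UMIs. The leading genes of subcluster 0 were Pclaf, Stmn1, Top2a, Mpo, Birc5, Ube2c, Hist1h1b, Smc2, Mcm3 and Hist1h2ak, which apart from Mpo are genes of DNA replication, chromatin and mitosis. Those of subcluster 1 were Apoe, Maf, Ccl4, Ms4a7, Slfn5, Neurl3, Pla2g7, Gngt2, Adgre1 and Clec4a3, and for Ccl4 most UMIs came from 1 cell. The clustering used these values, so they describe the subclusters and test nothing.

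Between the subclusters the lists moved in opposite ways. Subcluster 0 had 4326 CPM of G2 and mitosis genes against 143 CPM in subcluster 1, 3353 against 181 CPM of S phase genes and 2049 against 232 CPM of primary granule genes. It had less of the classical monocyte list (24870.5 against 49235 CPM), the lysosome list (19676 against 46314 CPM), both led by Lyz2, the growth factor receptors (1150.2 against 2750.1 CPM) and the interferon response genes (3236 against 7793 CPM). Lyz2 had 11883 against 31018 CPM, and without it the classical list had 12988 against 18218 CPM and the lysosome list 7793 against 15296 CPM. Csf1r had 95.3 against 448 CPM and Ccr2 542 against 1151 CPM. Irf8 (1014 against 296 CPM) and Klf4 (344 against 194 CPM) went the other way, as did Ly6c2 (1586 against 932 CPM) and Myb (82.3 against 3.18 CPM). Nr4a1 had 2.17 against 63.6 CPM and Cx3cr1 49.8 against 226 CPM. Lyz2, Csf1r, Ccr2, Cx3cr1 and Nr4a1 were lower, and Irf8, Klf4 and Ly6c2 higher, in the subcluster with the genes of division.

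**Figure D4:**
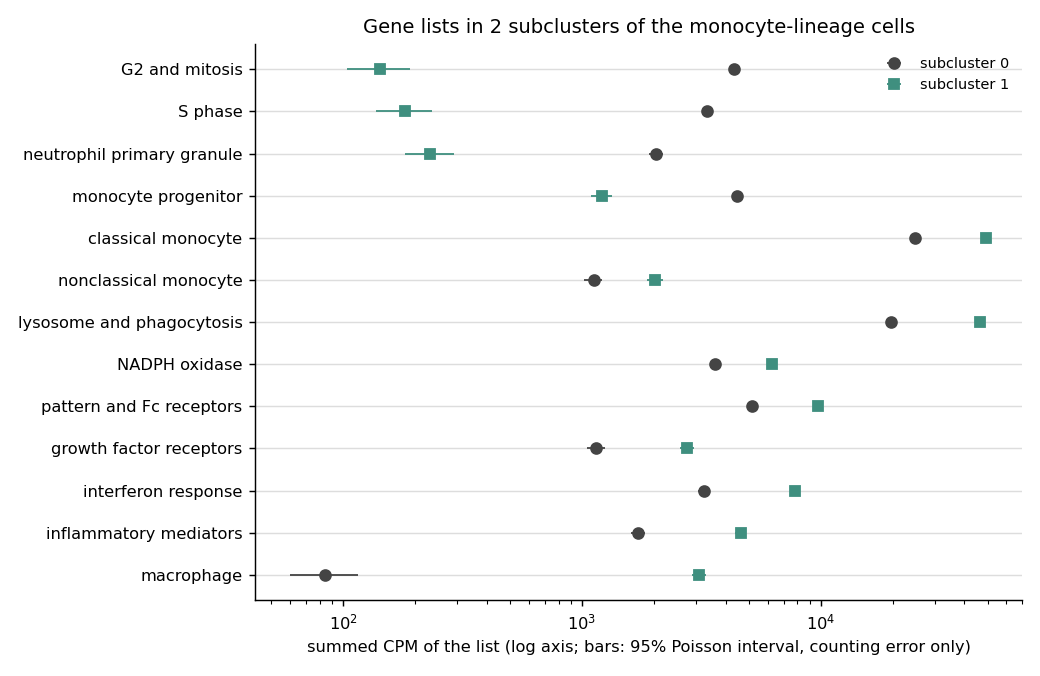
Summed CPM of 13 gene lists in subcluster 0 (circles, 37 cells) and subcluster 1 (squares, 60 cells), on a log axis with 95% Poisson intervals. Lists of division, primary granule and progenitor genes lie higher in subcluster 0 (G2 and mitosis 4326 against 143 CPM), and all other lists drawn lie higher in subcluster 1.

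Each subcluster was also split by sort. Lyz2 had 31095 CPM in cKIT+ and 30922 CPM in cKIT- cells of subcluster 1, but 9513 and 16126 CPM in subcluster 0. Ly6c2 had 888 and 984 CPM in subcluster 1 and 1333 and 2037 CPM in subcluster 0. Subcluster 0 held 8 of the 9 cKIT+ members and the 1 cKIT- member with at most 3 Lyz2 UMIs. Without them it had 15624 and 17063 CPM of Lyz2, which follows in part from the pick, and 1967 and 2104 CPM of Ly6c2. Mpo lay in subcluster 0 for both sorts, with 891 and 139 CPM against 23.1 and 0 CPM in subcluster 1, and without the members of at most 3 Lyz2 UMIs it had 122 and 147 CPM in subcluster 0. Apoe lay in subcluster 1, with 4286 and 524 CPM against 10.1 and 30.2 CPM. Over single cells of 1 library, drawn down to 2000 UMIs, primary granule genes and Lyz2 were inversely related in both sorts, with a Pearson r of -0.43 over 59 cKIT+ and -0.51 over 36 cKIT- members. Elane and Prtn3 of the primary granule list were limited by the choice, cells share their library, and these values are a description.

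**Figure D5:**
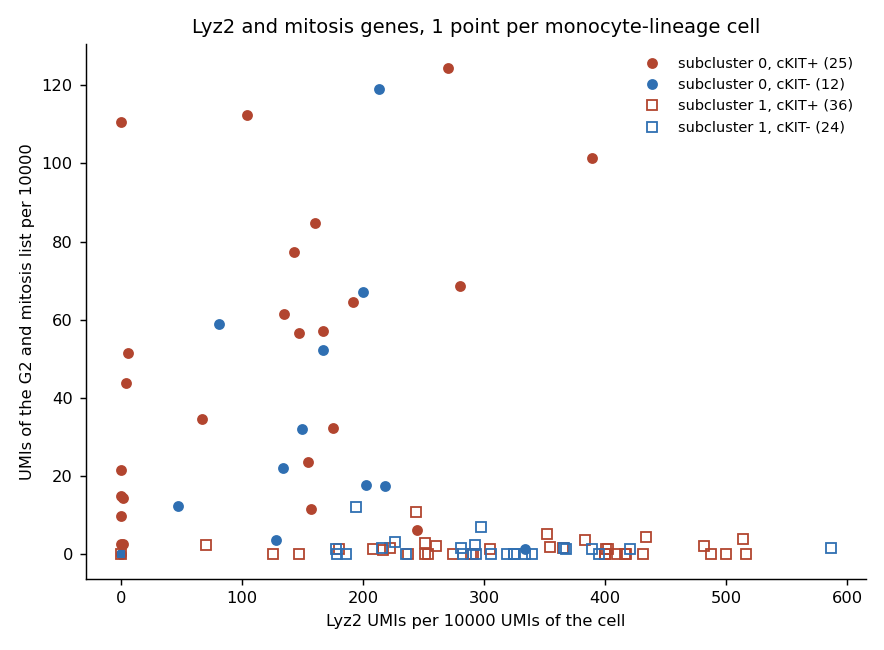
UMIs of the G2 and mitosis genes against UMIs of Lyz2, both per 10000 UMIs of the cell, for each of 97 members, by subcluster (filled or open) and sort (red or blue). Cells with over 20 mitosis UMIs per 10000 range in Lyz2 from 0 to 389, all of them in subcluster 0, and a group of cKIT+ cells of subcluster 0 sits at or near 0 for Lyz2.

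Some members stood apart from the rest, and they were singled out after their values were seen. The 9 cKIT+ members with at most 3 Lyz2 UMIs had 1 UMI of Fn1 and 1 of Chil3 among them. Mpo had 2002 CPM in these 9 against 79.7 CPM in the 47 cKIT+ members with neither at most 3 Lyz2 UMIs nor at least 3 Maf UMIs, Prtn3 1109 against 258 CPM, Irf8 1564 against 641 CPM and Ly6c2 339 against 1601 CPM. The 9 were not alike in Mpo, which ranged from 0 to 88 UMIs per cell with a median of 19. The limit of 3 UMIs is not a natural break, since 2 of the 47 had Lyz2 at only 4.29 and 5.48 UMIs per 10000, and the 5 members rich in the nonclassical list are also among the 47. Of the 15 cKIT+ Cd34 UMIs, a gene of early progenitors, 11 were in the 9 members with at most 3 Lyz2 UMIs. One of the 9 and the only such cKIT- member each had 4 UMIs of Siglech and 18 of Bst2, genes of plasmacytoid dendritic cells, with 49 and 31 UMIs of Irf8. Another of the 9, with 4632 UMIs in all, had 20 UMIs of Mcpt8, 11 of Cpa3, 10 of Ms4a2, 8 of Gata2 and 6 of Fcer1a, genes of basophils, and held all 6 Cdh1 UMIs of the cKIT+ members. Its UMIs of the chosen genes were 5 of F13a1 and 1 of Ms4a6c. In the cKIT- library 1 member of 16208 UMIs had 108 UMIs of Prss34, 54 of Mcpt8 and 18 of Gata2 beside 76 of Lyz2 and 38 of Ly6c2.

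The 5 cKIT+ members with at least 3 Maf UMIs held 65 of the 67 Maf UMIs, 393 of the 746 Apoe UMIs and 114 of the 163 cKIT+ UMIs of Selenop, a selenium carrier. They had much Lyz2, 157 to 273 UMIs each, and 4 of them had no UMI of Ly6c2 or Fn1. C1qb was at 0 in all 5 and C1qa, limited by the choice, had 2 UMIs in 1 of them. The other 47 cKIT+ members had 23069 CPM of Lyz2, 1601 CPM of Ly6c2, 1776 CPM of Fn1 and 906 CPM of Ccr2, levels that follow in part from which cells were removed.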

How the data were processed

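The authors sorted bone marrow cells, made 1 single-cell 10x library per sort (the labels name kit version 2, the methods version 3) and deposited raw counts of UMIs for every gene in each cell, made per the submitters' processing notes with Cell Ranger 3.0.2 against mm10. The counts were used as deposited, with no cell filter beyond 1000 UMIs. The members and gene lists were chosen with earlier results of these data known. Counts were summed over the cells of a group and scaled to CPM. A gene was tested for a 2-fold difference if it had at least 100 CPM in 1 of 2 groups. With 1 library per sort there is no p-value. Sums carry exact Poisson, shares exact Clopper-Pearson and ratios exact binomial 95% intervals, and 3 counts stand for a count of 0. Drawing 200 changed genes at random in simulated counts for the comparison of the sorts, 97.0% of 4-fold changes (1720 genes tested) and 49.0% of 2-fold changes (1782 genes tested) were called. Of the unchanged genes, 0.262% were called beside 4-fold changes, 0.315% beside 2-fold changes and 2.13% beside 8-fold changes. A true 2-fold change lies at the limit of the call itself. The simulated counts were Poisson draws with no variation between cells. These rates therefore do not cover genes whose UMIs lie in few cells, as for Ccl4 here. Comparison classes, which can share cells, were those with Elane and Prtn3 at 0.5% or more (with Camp, Ngp and Ltf under 0.3% and Prg2 under 3 UMIs), Camp, Ngp and Ltf at 1% or more, Mcpt8 at 0.5% or more of UMIs, or at least 3 UMIs of Cd79a for B-lineage cells. Subclusters were made with Scanpy 1.11.5 (1000 variable genes, 10 principal components, 15 neighbours, Leiden resolution 0.5). Scrublet marked 287 cKIT+ and 3 cKIT- cells. The second mark is under 0.5% and has not worked, and doublets were kept. An alternative dropped 352 and 112 cells that scored highest, 1 of them a member. edgeR 4.0.16 in R 4.3.3 was used for TMM factors alone. Coordinates are of GENCODE release 21 for GRCm38, in which 30934 of 31053 gene identifiers were found. Named genes are members of fixed lists, the 10 with the largest ratio each way in a comparison, 10 leading genes of each subcluster and the genes of the sort. Selenop and the cells set apart were chosen after their values were seen.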

Additional observations from a re-analysis of the deposited data

Results flagged for a closer look

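Ccl6 and Ccl4, chemokines of myeloid cells, went opposite ways against basophils in the libraries, and the difference was not tested. For Ccl6 the ratio of members to basophils was 4.46 in the cKIT+ library (424 against 94.9 CPM) and 0.445 in the cKIT- library (554 against 1245 CPM). The basophils of the libraries lay further apart in Ccl6 than the members did. For Ccl4 the ratio was 8.29 in the cKIT+ library (106 against 12.9 CPM), where 43 of 50 UMIs of the members came from 1 cell, and 0 in the cKIT- library (0 UMIs in the members against 220 CPM in basophils).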

How the results depend on the processing

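Over the alternatives run, 79 of 102 values for shares, levels and counts of genes stayed within their interval or within 1.5-fold and 23 moved beyond it. Of 307 ratios of single genes between the sorts 252 stayed, 52 moved and 3 turned, and most moves came with cells drawn down to 2000 UMIs (12 of 23), within subcluster 0 (10 of 23) or 1 (10 of 21) and without members of at most 3 Lyz2 UMIs (8 of 24). Cdh1 in the cKIT+ members fell to 0 CPM with at least 10 UMIs of the chosen genes, without the members of at most 3 Lyz2 UMIs, and without the member with most Cdh1, and in the cKIT- members to 0 CPM with cells drawn down to 2000 UMIs. The cKIT+ share was 0.563% when the choice was made on cells drawn down to 2000 UMIs, and the cKIT+ share with mitosis genes was 50.8% at 1 UMI. Counts of genes past 2-fold (82, 533, 599, 507 and 683 for the sorts, Elane-high cells, neutrophil-lineage cells, cKIT+ and cKIT- basophils) were 1021, 4624, 4245, 5748 and 5368 with no minimum other than 10 UMIs, 16, 169, 198, 159 and 202 at 300 CPM, and 359, 813 and 979 for the first 3 with cells drawn down to 2000 UMIs. Between the sorts they were 181 within subcluster 0 (65 higher, 116 lower) and 179 within subcluster 1. The neutrophil-lineage count was 340 with size factors by the median of ratios. Resolution 1 gave 4 subclusters. TMM scaling moved the median log2 ratio against Elane-high cells from 0.03 to -0.31, against neutrophil-lineage cells from 0.66 to -0.18, against basophils from 0.10 to -0.21 and from 0.17 to -0.20, and the splits of higher and lower genes to 280 and 271, 158 and 261, 248 and 267, and 283 and 416. Ratios of single genes between the sorts turned for Mpo (0.965 without members of at most 3 Lyz2 UMIs) and Apoe (0.335 within subcluster 0, on 3 and 5 UMIs). That of Maf also turned, to 0.706 without members of at least 3 Maf UMIs, which follows from the pick. Settings that leave out members by Lyz2 or Maf, or stay within a subcluster, were added after the data were seen. No paired analysis was possible because each sort has 1 library. With 61 and 36 cells, low genes rest on few UMIs, and the cause of these changes was not tested.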

Other observations

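Ighm, which encodes the heavy chain of immunoglobulin M and is known as a B cell gene, had 191 UMIs in 55 of 61 cKIT+ members (407 CPM, exact Poisson interval 351 to 469) and 156 UMIs in 32 of 36 cKIT- members (509 CPM, 432 to 595). Of the other genes on the B cell list, Cd79b had 16 UMIs in 11 cKIT+ and 6 UMIs in 4 cKIT- members, Ebf1 had 1 UMI in a cKIT+ member, and Ms4a1, Pax5 and Vpreb1 had none. Ighm had 4.10 and 5.21 CPM in the basophils of the same libraries, 42.3 CPM in Elane-high cells, 18.0 CPM in cKIT+ neutrophil-lineage cells and 11967 and 4411 CPM in B-lineage cells. The highest member held 21 UMIs. In the cells left out by MHC class II alone Ighm had 410.4 and 545 CPM. Genes of MHC class I differed little between the sorts, with 0 of 6 tested past 2-fold and B2m, the light chain of MHC class I, at 1026 CPM in cKIT+ and 1008 CPM in cKIT- members.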
